A study of Homo sapiens with 4 samples.

Results

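The replication-dependent histone genes encode the linker histone H1 and the core histones H2A, H2B, H3 and H4 that package newly made DNA. They were taken here as the genes with a probe set carrying exactly 1 gene symbol in the platform's annotation, where that symbol was H1-1 to H1-6 or started with H2AC, H2BC, H3C or H4C followed by a digit. The rule found 58 of the 18417 genes named in this way, each with 1 probe set: 6 for H1, 14 for H2A, 17 for H2B, 8 for H3 and 13 for H4. H2BC19P, counted among the H2B genes, is a pseudogene in the RefSeq table. H4C14 and H4C15 had identical values on all 4 arrays, so these 2 genes stand for 1 measurement.

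Most of the histone protein made during S phase comes from these genes, which lack introns and lie in clusters. Cyclin E and CDK2 activate their transcription through NPAT, and their mRNAs typically end in a stem-loop bound by SLBP rather than in a poly(A) tail, so their levels rise and fall with DNA synthesis. A few also give polyadenylated transcripts. Many histone genes of a class are similar in their coding sequence, so probes can hybridise with transcripts of several copies and the value of any single member is uncertain.

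The RNA came from MDA-MB-231, an established cell line of triple-negative, mesenchymal-like breast cancer grown in DMEM with serum, and was hybridised to Affymetrix arrays. To ask which transcripts differ when the nuclear protein DBC1 (now named CCAR2) is depleted, 2 arrays of cells carrying a hairpin against it (shDBC1) were set beside 2 arrays of cells carrying a non-specific hairpin (shNS). Neither line was treated, and the labels do not say whether the lines were pools or clones, how many hairpins were used or how reverse transcription was primed. The design text calls the replicates independent and biological, and the p-values below measure the spread between these 4 arrays only.

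Values are log2 intensities after robust multi-array average (RMA), and differences are shDBC1 minus shNS on the log2 scale. CCAR2 itself had a log2 intensity of 9.62 and 9.41 on the shNS arrays and 8.76 and 8.16 on the shDBC1 arrays, a difference of -1.06 (SE 0.23, 95% interval -1.67 to -0.44, adjusted p = 1 in limma, the linear model fitted to each gene). Mesenchymal-like markers of this line (VIM, CD44, AXL, CAV1 and FN1) read between 11.1 and 13.1 on every array. The 25th percentile over all genes was a log2 intensity of 6.58. Above it lay 6 of 8 luminal markers (EPCAM, GATA3, ELF3, ERBB3, CDH1 and FOXA1, from 6.79 to 9.61 on single arrays, with ESR1 and PGR under it), 2 of 4 leukocyte markers (CD68 at a mean of 11.9 and ITGAM at 6.63, with PTPRC and CD3E under it) and 2 of 5 fibroblast markers (PDGFRB at 7.95 and COL3A1 at 7.18, with DCN, LUM and PDGFRA under it). LUM nonetheless read 7.01 on the second shDBC1 array. Both shDBC1 arrays lay below both shNS arrays for GATA3 (-0.47), CAV1 (-0.35), CD44 (-0.18), VIM (-0.12) and ESR1 (-0.08). They lay above both for AXL (0.08) and CD68 (0.23). Over all genes tested these shares were 13.2% and 11.6%. Over the 6 luminal markers the second array minus the first had a median of 0.40 in shNS and 0.71 in shDBC1. In each line 2 of the 6, GATA3 and FOXA1, went the other way and read lower on the second array. The part of these markers in the histone values was not tested. Genes whose mean lay under that level were left out of the test, which left 13813 genes.

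Transcripts of the histone genes were mostly lower in shDBC1 cells, although no single gene passed the threshold of the fit by group alone. Of the 58 genes, 38 passed the filter on dim genes, and 37 of these had a difference below zero, against 47.7% of all genes tested. Their median difference was -0.34, beside 0.0065 for all genes tested, and the differences ran from -0.81 for H2AC15 to 0.05 for H3C7. Both shDBC1 arrays lay below both shNS arrays for 21 of the 38, against 13.2% of all genes tested, and for 0 of the 38 did both lie above, against 11.6%. With H4C14 and H4C15 counted as 1 measurement, 36 of 37 were below zero and the count of 21 did not change. With 2 arrays against 2, an exact two-sided permutation test cannot give a p below 0.333, so none was run per gene.

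In the limma fit over all genes, 0 histone genes and 0 genes in all (0%) had an adjusted p under 0.05 (Benjamini-Hochberg, two-sided), and for each of the 38 the adjusted p was 1. Unadjusted, 7 histone genes had a p under 0.05, all of them lower, where 2.57% of all genes tested were lower at that level. These were H2AC15, H2AC21, H2BC6, H3C2, H2AC20, H2BC12 and H2AC17. H2BC6 alone of the 38 had a shDBC1 mean under the filter level and passed the filter through its shNS values; without it there were 6. By size, 5 of the 38 were at least 1.5-fold lower, against 1.38% of all genes tested. Those 5 were H2AC15, H2AC17, H2BC12, H2AC4 and H2BC17.

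**Figure D1:**
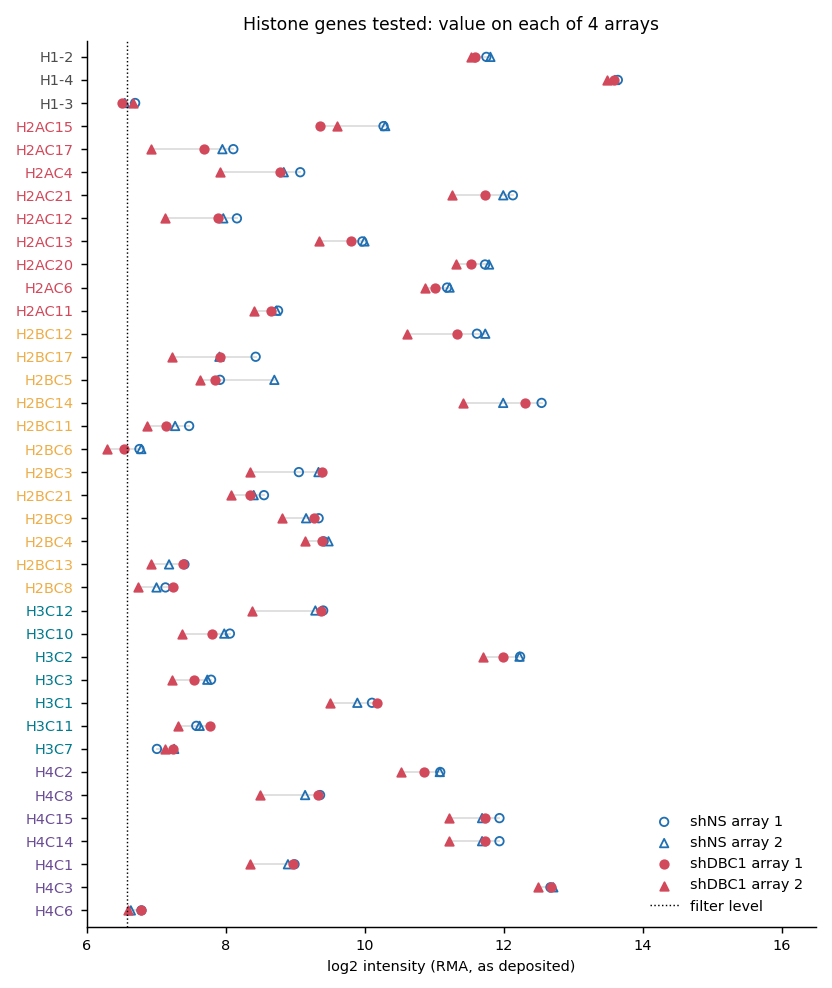
Log2 intensity (horizontal axis) of the 38 histone genes tested, 1 row per gene and grouped by class from H1 at the top to H4 at the bottom. Open blue symbols are the shNS arrays, filled red symbols the shDBC1 arrays, circles the arrays numbered 1, triangles those numbered 2, and the dotted line the filter level of 6.58. In most rows the red triangle lies farthest to the left and the red circle close to the blue symbols.

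The second shDBC1 array lay farther below the controls than the first. Relative to each gene's shNS mean, the first shDBC1 array had a median deviation of -0.12 over the 38 genes and the second one of -0.53, while the shNS arrays deviated by 0.044 and -0.044. The second shDBC1 array was below both shNS arrays for 36 of the 38 genes and the first for 22. Over all 13813 genes tested these counts were 4482 and 3996. The second shDBC1 array also read below the first for 36 genes (6927 of all genes tested), with a median gap of -0.45. The shNS arrays differed by a median of only -0.09, with the second lower for 25 genes (6910 of all genes tested). Without the second shDBC1 array, 26 of the 38 genes were below zero (6516 of all genes tested) and the median was -0.12. Without the first, 37 were below zero (6634 of all genes tested) with a median of -0.53. The remaining shDBC1 array then lay below both controls for 36 (4482 of all genes tested). Without the second shNS array, both shDBC1 arrays lay below the remaining control for 32 genes, with a median of -0.34. Without the first shNS array this held for 23, with a median of -0.26. Shares over all genes were not counted for either rule of the shNS omissions. With an array left out, each rule is easier to meet than with all arrays. The counts of 36, 32 and 23 therefore do not show a clearer separation than the main count of 21.

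Genes of S phase and DNA replication, whose transcripts accompany histone synthesis in dividing cells, moved with array number too. On the second array of each line, all 27 S-phase genes tested read lower than on the first, with a median gap of -0.23 in shNS and -0.39 in shDBC1. Of all 13813 genes tested, 6910 read lower on the second array in shNS and 6927 in shDBC1. Between the lines, however, the S-phase list had 11 of 27 genes below zero, against 47.7% of all genes tested, and a median of 0.03. Its medians relative to the shNS mean were 0.26 (first shDBC1 array) and -0.19 (second). On both shDBC1 arrays the histone median was thus below the S-phase median. The part of this difference between arrays in the histone values was not tested.

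**Figure D2:**
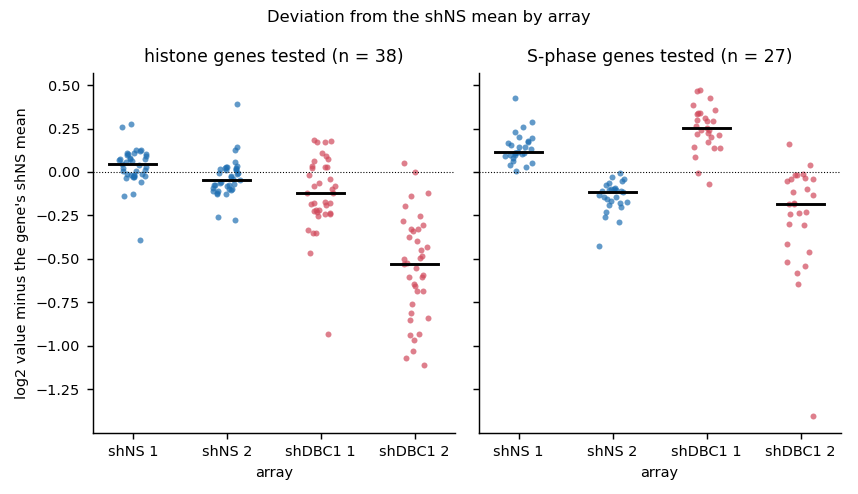
Log2 value minus the gene's own shNS mean (vertical axis) on each of the 4 arrays, for the 38 histone genes tested (left) and the 27 S-phase genes tested (right). Each point is a gene and each bar a median: the histone medians on the shDBC1 arrays are -0.12 and -0.53, and the S-phase medians there are 0.26 and -0.19.

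Of the linker histone genes 3 passed the filter, and their differences were small. H1 binds the DNA between nucleosomes. H1-2 read 11.75 and 11.81 on the shNS arrays against 11.59 and 11.53 on the shDBC1 arrays, a difference of -0.22 (SE 0.11, interval -0.50 to 0.06), with both shDBC1 arrays below the controls. H1-4 read 13.64 and 13.60 against 13.58 and 13.48, without overlap (-0.09, SE 0.11, interval -0.37 to 0.20). H1-3, near the filter level, read 6.70 and 6.55 against 6.51 and 6.67 (-0.03, SE 0.13), and its groups overlapped. The H1 median was -0.09.

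H2A genes stood lowest among the classes by their median. For each of the 9 tested both shDBC1 arrays lay below both shNS arrays, against 13.2% of all genes tested. H2A pairs with H2B to form the dimers that flank the H3-H4 core of the nucleosome. The 9 had a median of -0.55, with medians relative to the shNS mean of -0.19 (first shDBC1 array) and -0.69 (second). The 5 H2A genes below the filter had a median of 0.03. Of these 1 had no overlap on the lower side, against 10.6% of all genes below the filter. No test of the difference between classes was made.

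H2AC15 had the smallest p of the 38 genes. It read 10.27 and 10.30 in shNS and 9.35 and 9.60 in shDBC1, so it was 1.75-fold lower (-0.81, SE 0.13, interval -1.15 to -0.47; unadjusted p = 0.00211 and adjusted p = 1 in limma). It was the exception to the order of the arrays among H2A genes, since its first shDBC1 array was the lower. A further probe set, annotated to both H2BC15 and H2AC15, read 8.67 and 8.54 in shNS and 8.45 and 8.39 in shDBC1, and differed by only -0.19 (SE 0.11), so the probe sets naming H2AC15 disagreed in size.

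H2AC17 read 8.11 and 7.95 on the shNS arrays against 7.68 and 6.92 on the shDBC1 arrays (-0.73, SE 0.28). H2AC4 read 9.07 and 8.84 against 8.78 and 7.92 (-0.60, SE 0.31), and H2AC12 read 8.16 and 7.97 against 7.89 and 7.13 (-0.55, SE 0.28). In these 3 genes the second shDBC1 array was lower by more than 0.5 than any other array, and the first lay under the controls. H2AC21, on chromosome 1, read 12.13 and 11.99 against 11.73 and 11.25, 1.49-fold lower (-0.57, SE 0.19, interval -1.08 to -0.07). Its neighbour H2AC20 read 11.73 and 11.79 against 11.53 and 11.31 (-0.34, SE 0.12, interval -0.67 to -0.01). For both, the interval of the fit lay below zero, without adjustment for the genes tested.

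The remaining H2A genes showed smaller gaps between the groups. H2AC13 read 9.97 and 10.00 on the shNS arrays against 9.80 and 9.34 on the shDBC1 arrays (-0.41, SE 0.18). H2AC6 read 11.19 and 11.22 against 11.02 and 10.87 (-0.26, SE 0.11), and H2AC11 read 8.75 and 8.73 against 8.65 and 8.40 (-0.22, SE 0.13).

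All 12 H2B genes tested were below zero, with a median of -0.35, and for 6 of them the groups did not overlap, against 13.2% of all genes tested. The class median relative to the shNS mean was -0.09 for the first shDBC1 array, with 7 of 12 genes below it, and -0.49 for the second, with all 12 below. H2BC12 had the largest difference. It read 11.62 and 11.74 in shNS and 11.33 and 10.60 in shDBC1, 1.64-fold lower (-0.71, SE 0.26, interval -1.40 to -0.02). The gap between its shDBC1 arrays was larger than the gap from the first of them to the controls. H2BC5 read 7.92 and 8.70 against 7.84 and 7.63 (-0.57, SE 0.29), with the shNS arrays themselves far apart. H2BC6, the tested histone gene nearest to the filter level, read 6.76 and 6.79 against 6.53 and 6.29 (-0.36, SE 0.13, interval -0.71 to -0.02). Both its shDBC1 values lay under that level, and the size of its difference is uncertain as well.

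A further 3 H2B genes had no overlap between the groups. H2BC11 read 7.48 and 7.27 on the shNS arrays against 7.14 and 6.87 on the shDBC1 arrays (-0.37, SE 0.15), H2BC21 8.55 and 8.40 against 8.36 and 8.08 (-0.26, SE 0.14), and H2BC4 9.41 and 9.48 against 9.38 and 9.14 (-0.18, SE 0.13). In the other 6 the first shDBC1 array lay among or above the controls. H2BC17 read 8.43 and 7.91 against 7.92 and 7.23 (-0.60, SE 0.30), and H2BC14 read 12.55 and 11.99 against 12.30 and 11.42 (-0.41, SE 0.36). H2BC3 read 9.05 and 9.34 against 9.38 and 8.35 (-0.33, SE 0.37). In each of these 3 genes the interval of the fit spanned zero. H2BC9 read 9.34 and 9.16 against 9.28 and 8.81 (-0.20, SE 0.19), H2BC13 7.41 and 7.19 against 7.39 and 6.92 (-0.14, SE 0.20), and H2BC8 7.13 and 7.01 against 7.24 and 6.74 (-0.08, SE 0.20).

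Of the 7 H3 genes tested, 6 were below zero, 3 of them without overlap (13.2% of all genes tested), and the median was -0.38. The second shDBC1 array lay lower than the first. Its median relative to the shNS mean was -0.52, while that of the first was 0.030 with 3 of 7 genes below the mean. H3 and H4 form the tetramer at the centre of the nucleosome. H3C2 read 12.24 and 12.23 in shNS and 11.99 and 11.71 in shDBC1, 1.30-fold lower (-0.38, SE 0.14, interval -0.75 to -0.02). H3C10 read 8.06 and 7.98 against 7.80 and 7.37 (-0.44, SE 0.18), and H3C3 read 7.79 and 7.74 against 7.54 and 7.23 (-0.38, SE 0.15). In these 3 genes the shNS arrays agreed within 0.1 and both shDBC1 arrays lay under them. H3C12 read 9.40 and 9.29 against 9.38 and 8.38 (-0.47, SE 0.35), so its difference came from the second shDBC1 array. The same held for H3C1, at 10.11 and 9.90 against 10.17 and 9.51 (-0.16, SE 0.25), and for H3C11, at 7.58 and 7.63 against 7.78 and 7.32 (-0.05, SE 0.18). H3C7 was the only tested gene above zero, at 7.01 and 7.26 against 7.24 and 7.14 (0.05, SE 0.14, interval -0.30 to 0.41).

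All 7 H4 genes tested were below zero, with a median of -0.34, but only H4C2, 1 of 7, had no overlap between the groups, a share near the 13.2% of all genes tested. Relative to the shNS mean the median was -0.015 for the first shDBC1 array, with 4 of 7 genes below the mean, and -0.59 for the second, with all 7 below. These figures count H4C14 and H4C15, which stand for 1 measurement, as separate genes. H4C2 read 11.09 and 11.08 on the shNS arrays against 10.86 and 10.53 on the shDBC1 arrays, 1.31-fold lower (-0.39, SE 0.15, interval -0.78 to 0.0038). H4C8 read 9.36 and 9.14 against 9.33 and 8.49 (-0.34, SE 0.30), and H4C1 read 8.99 and 8.90 against 8.97 and 8.35 (-0.29, SE 0.23). H4C14 and H4C15 shared the values 11.94 and 11.69 against 11.74 and 11.21 (-0.34, SE 0.22). For these genes the first shDBC1 array lay within the range of the controls and the second below it. H4C3 read 12.67 and 12.71 against 12.68 and 12.50 (-0.10, SE 0.12), and H4C6, near the filter level, 6.79 and 6.64 against 6.78 and 6.59 (-0.03, SE 0.13).

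**Figure D3:**
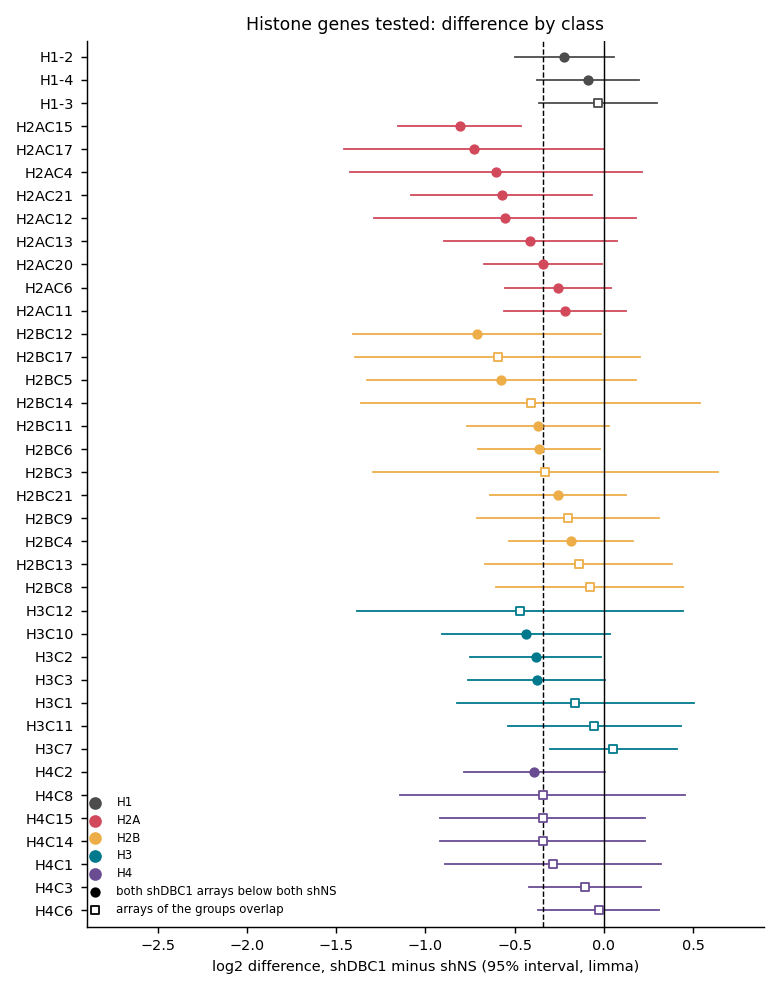
Log2 difference, shDBC1 minus shNS (horizontal axis), of the 38 histone genes tested with 95% intervals of the limma fit, coloured by class. Filled circles mark genes whose shDBC1 arrays both lay below both shNS arrays (21 genes), open squares the other 17, and the dashed line the median of -0.34.

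The 20 histone genes below the filter showed little difference as a group. Their median was -0.02, with 12 of 20 below zero, 2 without overlap on the lower side (12.6% of all 18417 genes) and 1 on the upper (11.8%), and over all 58 genes the median was -0.21 with 49 below zero, against 47.1% of all 18417 genes. H2AC14 was the exception and lay just outside the filter, with a mean of 6.577 where H2BC6, just inside, had 6.593. It read 7.20 and 7.23 in shNS and 6.04 and 5.83 in shDBC1, the lowest difference of any of the 58 genes (-1.28, SE 0.11, interval -1.59 to -0.97; 2.43-fold lower). In the fit without a filter its unadjusted p was 0.000238 and its adjusted p was 1 (limma). Both shDBC1 values lay under the filter level, where distance from background is unknown, and the fold is uncertain for that reason.

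Of the next brightest genes below the filter, H4C9 read 6.78 and 6.57 against 6.65 and 6.14 (-0.28, SE 0.21). H4C16, the only member on chromosome 12, read 6.57 and 6.57 against 6.53 and 6.36 (-0.12, SE 0.11). H2BC26 and H4C4 differed by -0.0047 and 0.01. The member highest above zero was H1-5, at 6.10 and 5.95 in shNS against 6.47 and 6.23 in shDBC1 (0.32, SE 0.13, interval -0.03 to 0.67), with both shDBC1 arrays above both controls. H1-5 was picked out after its values were seen. The other 14 lay between -0.19 and 0.09.

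By level, the lower values were found wherever the probe sets were bright enough to be tested. Brightness also depends on the probes, so these groups describe probe sets rather than transcript amounts. Between the 25th and 50th percentile of all genes 13 of 14 histone genes were below zero (median -0.37), against 38.8% of all genes in that range. Between the 50th and 75th percentile it was 9 of 9 (median -0.29), against 50.7%, and above the 75th percentile 15 of 15 (median -0.34), against 53.7%. The 15 include H4C14 and H4C15 with their shared values. Both shDBC1 arrays lay below both shNS arrays for 7, 4 and 10 genes of these ranges, against 8.86%, 14.2% and 16.6%. Below the 25th percentile 12 of 20 histone genes were below zero, against 45.1%, and 2 had no overlap on the lower side, against 10.6%.

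**Figure D4:**
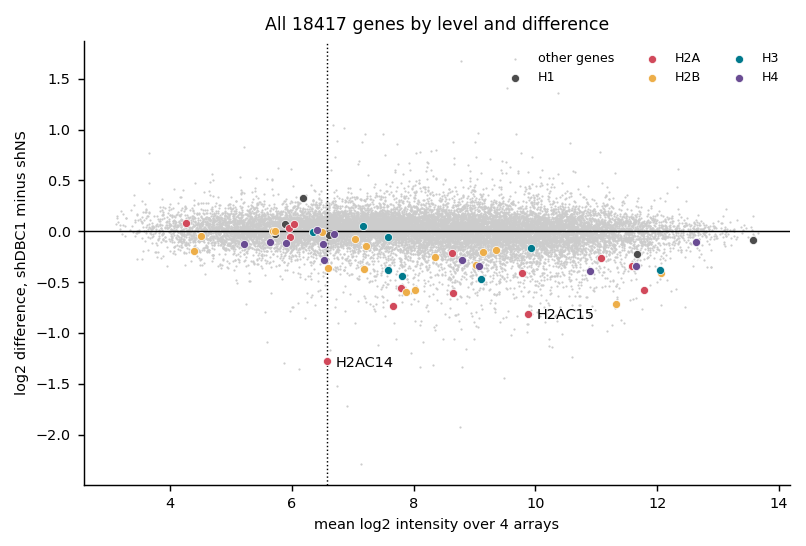
Log2 difference, shDBC1 minus shNS (vertical axis), against the mean log2 intensity over the 4 arrays (horizontal axis) for all 18417 genes, with the 58 histone genes coloured by class and the filter level of 6.58 dotted. To the right of the dotted line 37 of 38 histone genes lie below zero, and H2AC14 lies at -1.28 on the line's left edge.

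By place in the genome, the lower values were not limited to a single cluster. The RefSeq table (GRCh38.p14) puts 31, 5 and 13 of the 58 genes in 3 stretches of chromosome 6, 6 and 2 in a pair of stretches of chromosome 1, and H4C16 on chromosome 12. In the 3 stretches of chromosome 6 the tested genes had medians of -0.24 (20 genes), -0.46 (4 genes) and -0.44 (9 genes), and 19, 4 and 9 of them were below zero. The 5 tested genes of the longer chromosome 1 stretch were all below zero, with a median of -0.34, and include H4C14 and H4C15 with their shared values. Both genes of the other chromosome 1 stretch, H2AC25 and H2BC26, were below the filter. Members known to give polyadenylated transcripts (H1-2, H2AC6, H2BC4, H2BC5, H2BC12 and H2BC21) had a median of -0.26, and in all 6 both shDBC1 arrays lay below both shNS arrays. The other 32 tested genes had a median of -0.34, with 15 free of overlap, and over all genes tested the share was 13.2%. Relative to the shNS mean, the median on the second shDBC1 array was -0.36 for the 6 and -0.54 for the 32. On the first shDBC1 array the order was the reverse, at -0.19 for the 6 and -0.09 for the 32. The difference between these sets was not tested.

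Many H2A and H2B genes lie head to head, so that a single stretch of DNA serves as the promoter of both. The RefSeq table held 10 such neighbours among the members, less than 300 bases apart, and all 9 with a promoter entry for both genes were on opposite strands. In the 6 pairs with both genes tested, both were below zero, which follows from all tested H2A and H2B genes being below zero. In 4 of the 6 the H2A gene was the lower. H2AC17 and its neighbour H2BC17 differed by -0.73 and -0.60, H2AC12 and H2BC12 by -0.55 and -0.71, and H2AC20 and H2BC21 by -0.34 and -0.26. The genes H2AC11 and H2BC11 differed by -0.22 and -0.37, H2AC6 and H2BC4 by -0.26 and -0.18, and H2AC13 and H2BC13 by -0.41 and -0.14. This last pair differed within itself by -0.27, and the others of the 6 by at most 0.16. The widest gap of all 10 pairs was that of H2AC14, at -1.28, and its neighbour H2BC14, at -0.41, a gap of -0.87. On the first shDBC1 array that gap was -1.21 and on the second -0.53, so its size differed between the arrays.

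**Figure D5:**
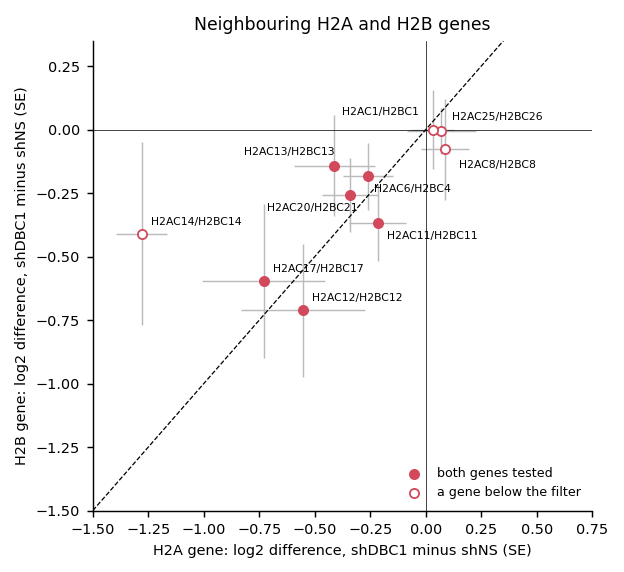
Log2 difference, shDBC1 minus shNS, of the H2A gene (horizontal axis) and of the neighbouring H2B gene (vertical axis) in 10 pairs, with standard errors of the limma fit as bars and the dashed line marking equal differences. Filled points are the 6 pairs with both genes tested, and the pair of H2AC14 (-1.28) and H2BC14 (-0.41) lies far to the left of the dashed line.

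RefSeq promoter sequences (GRCh38.p14, from 250 bases before to 50 bases after the gene's start) were found for 52 of the 58 genes, 33 of them tested. H2AC12, H2BC19P, H3C11, H3C12, H4C1 and H4C3 had no entry in the table used. The promoters below are those of the H2A genes with the largest differences, of H2BC12, H3C2 and H4C2, which had the largest H2B difference and the smallest unadjusted p of the H3 and H4 genes, and of H1-4, which differed little. They were chosen with these values known. Capitals mark matches, on either strand, to 3 motifs: TATAAA, which directs the basal machinery to the start, CCAAT, which NF-Y binds, and the octamer, ATTTGCAT, which POU factors bind:
H1-4 (chr6:26156079-26156378, + strand): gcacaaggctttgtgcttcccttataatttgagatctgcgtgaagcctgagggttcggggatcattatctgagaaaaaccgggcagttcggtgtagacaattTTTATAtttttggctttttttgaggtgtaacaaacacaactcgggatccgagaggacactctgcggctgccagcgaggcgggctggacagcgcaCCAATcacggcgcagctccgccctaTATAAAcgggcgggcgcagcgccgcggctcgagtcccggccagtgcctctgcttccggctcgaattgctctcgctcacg
H2AC14 (chr6:27814728-27815027, - strand): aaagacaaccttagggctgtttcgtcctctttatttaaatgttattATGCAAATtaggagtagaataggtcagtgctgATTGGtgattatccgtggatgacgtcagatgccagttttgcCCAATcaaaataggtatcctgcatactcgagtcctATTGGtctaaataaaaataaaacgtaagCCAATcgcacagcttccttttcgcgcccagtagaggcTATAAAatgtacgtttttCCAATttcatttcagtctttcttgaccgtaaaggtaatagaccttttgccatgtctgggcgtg
H2AC15 (chr6:27838326-27838625, - strand): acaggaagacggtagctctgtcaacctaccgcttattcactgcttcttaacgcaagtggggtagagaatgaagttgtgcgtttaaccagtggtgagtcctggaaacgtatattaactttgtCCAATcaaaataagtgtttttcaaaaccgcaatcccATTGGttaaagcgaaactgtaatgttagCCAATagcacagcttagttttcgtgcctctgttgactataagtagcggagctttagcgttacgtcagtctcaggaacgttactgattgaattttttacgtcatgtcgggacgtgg
H2BC12 (chr6:27146809-27147108, - strand): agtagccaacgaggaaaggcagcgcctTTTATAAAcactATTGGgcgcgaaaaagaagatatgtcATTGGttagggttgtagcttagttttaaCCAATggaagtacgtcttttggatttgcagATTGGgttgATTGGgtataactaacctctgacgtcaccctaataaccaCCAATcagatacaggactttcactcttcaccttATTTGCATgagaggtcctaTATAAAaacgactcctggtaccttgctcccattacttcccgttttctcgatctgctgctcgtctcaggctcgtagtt
H3C2 (chr6:26032050-26032349, - strand): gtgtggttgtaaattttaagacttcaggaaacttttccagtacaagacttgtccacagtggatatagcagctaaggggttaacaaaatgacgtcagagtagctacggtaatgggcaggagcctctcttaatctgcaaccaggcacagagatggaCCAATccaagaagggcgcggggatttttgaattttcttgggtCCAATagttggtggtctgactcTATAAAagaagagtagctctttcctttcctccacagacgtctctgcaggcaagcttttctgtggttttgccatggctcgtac
H4C2 (chr6:26027234-26027533, - strand): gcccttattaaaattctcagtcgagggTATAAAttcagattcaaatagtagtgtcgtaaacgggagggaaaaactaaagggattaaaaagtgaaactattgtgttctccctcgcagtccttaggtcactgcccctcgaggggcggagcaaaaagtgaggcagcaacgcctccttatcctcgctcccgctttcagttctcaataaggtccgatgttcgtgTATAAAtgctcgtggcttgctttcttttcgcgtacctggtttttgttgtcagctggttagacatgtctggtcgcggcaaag

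The upstream TATAAA match of H2BC12 is overlapped by a match on the opposite strand, and no other matches in these 6 sequences overlap. A TATAAA match lay 31 bases before the start in H2AC14 and H4C2, 32 in H3C2, 29 in H1-4 and 27 in H2BC12, and the letters were not found in the H2AC15 window. The octamer lay 46 bases before the start of H2BC12. In H2AC14 it lay on the opposite strand at 204 bases. CCAAT matches numbered 5 in H2AC14, 3 in H2AC15, 6 in H2BC12, 2 in H3C2, 1 in H1-4 and 0 in H4C2. These matches are descriptions of letters, and occupancy was not measured.

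Across all 52 histone promoters, 23 (44.2%) held the octamer, against 1.8% of the 27305 promoters of the table. It occurred in 10 of 13 H2A and 13 of 16 H2B promoters, and in 0 of 6 H1, 0 of 6 H3 and 0 of 11 H4 promoters. CCAAT was present in all 6 H1, 13 H2A, 16 H2B and 6 H3 promoters but in only 3 of 11 H4 promoters, against 35.7% of the table. TATAAA was present in 34 of the 52 histone promoters, against 3264 of the 27305. Medians by motif were close together, without a test, and since the octamer was found only in H2A and H2B promoters its comparison cannot be told apart from class. Tested genes with the octamer had a median of -0.35 (16 genes, -0.73 to -0.08) and those without it -0.34 (17 genes, -0.81 to 0.05). With TATAAA the median was -0.36 (25 genes) and without it -0.34 (8 genes), and with CCAAT it was -0.34 (29 genes) and without it -0.34 (4 genes). All 4 without CCAAT were H4 genes, among them H4C14 and H4C15 with their shared values. The comparison by CCAAT therefore cannot be told apart from class either.

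Probe sets annotated to several histone genes, which the rule left out, read lower as well. Of 16 such probe sets 15 passed the filter, all 15 were below zero, and 6 had no overlap between the groups, with a median of -0.33. Over all genes tested these shares were 47.7% and 13.2%. Some of them had identical values, and counted without repeats there were 12, with 4 free of overlap and a median of -0.33. The set for H3C10 and H2AC13 differed by -0.46 (SE 0.19), close to the single-gene values of -0.44 and -0.41. The set for H2BC12, H2BC12L, H2BC17 and H2BC5 differed by -0.43 (SE 0.25). Sets for H4C14 and H4C15 differed by -0.62 (SE 0.28), where the single-symbol sets of these genes gave -0.34. H3C13, H3C14 and H3C15, close copies on chromosome 1 that no single-symbol set covered, differed by -0.33 to -0.34 over 4 sets. These probe sets name some of the same genes as the members, so they are not independent measurements.

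The genes that act on histone transcripts and histone proteins did not show the lower values of the histone genes, and 0 of the genes on these lists passed the limma threshold. Among factors of histone gene transcription 5 of 11 tested were below zero (median 0.0015), against 47.7% of all genes tested. NPAT, the coactivator dedicated to histone genes, read 10.38 and 10.45 on the shNS arrays against 10.46 and 10.45 on the shDBC1 arrays (0.04, SE 0.10, interval -0.23 to 0.32). CASP8AP2, which works at histone locus bodies, differed by 0.09 (SE 0.15) and HINFP, a regulator of H4 genes, by -0.05 (SE 0.11). The NF-Y subunit gene NFYA read 11.31 and 11.29 against 11.67 and 11.61 (0.34, SE 0.10), and CDK2 10.85 and 10.71 against 10.60 and 10.38 (-0.29, SE 0.13). In both the groups did not overlap, with NFYA higher and CDK2 lower in shDBC1 cells. Of the 11 genes, 2 (NFYA and NPAT) had both shDBC1 arrays above both controls and 1 (CDK2) had both below. Over all genes tested these shares were 11.6% and 13.2%. The NF-Y subunit genes NFYB and NFYC differed by 0.19 (SE 0.16) and -0.30 (SE 0.18).

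The list of 3' end processing had 4 of 10 tested genes below zero (median 0.05), against 47.7% of all genes tested. SLBP, the stem-loop binding protein, read 10.80 and 10.76 on the shNS arrays against 10.91 and 10.73 on the shDBC1 arrays (0.04, SE 0.12, interval -0.27 to 0.35). The U7 snRNP genes LSM10 and LSM11 differed by -0.01 (SE 0.20) and -0.03 (SE 0.11). NCBP2 and NCBP1 of the nuclear cap-binding complex differed by 0.28 (SE 0.14) and -0.20 (SE 0.31), SYMPK (symplekin, a scaffold of the cleavage complex) by 0.10 (SE 0.11) and CPSF2 by 0.13 (SE 0.18). Of 6 histone mRNA decay genes 3 were below zero (median 0.02), against 47.7% of all genes tested. LSM1 differed by 0.21 (SE 0.13) and ERI1, the exonuclease that trims the stem-loop, by 0.19 (SE 0.11). Both shDBC1 arrays lay above both controls for these 2 of the 6 decay genes. The same held for 2 of the 10 processing genes, NCBP2 and SYMPK, against 11.6% of all genes tested. EXOSC10 and XRN1 differed by -0.11 (SE 0.14) and 0.08 (SE 0.17).

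Histone chaperones had 13 of 23 tested genes below zero, against 47.7% of all genes tested, and a median of -0.0015. Both shDBC1 arrays lay below the controls for 1 chaperone gene, against 13.2% of all genes tested. That gene was NASP, a carrier of H3 and H4, at -0.12 (SE 0.10). ASF1B, the S-phase chaperone of H3 and H4, read 11.94 and 11.69 against 11.73 and 11.38 (-0.26, SE 0.17), HJURP, the chaperone of centromeric H3, differed by -0.26 (SE 0.19), and ANP32E, a chaperone of H2A.Z, by 0.13 (SE 0.12). The replication-independent histone variants, which are made outside S phase as well, had 5 of 8 tested genes below zero and a median of -0.03. For 0 of 8 did both shDBC1 arrays lie below both controls. Over all genes tested these shares were 47.7% and 13.2%. H2AX, the variant that marks DNA breaks, read 10.88 and 10.62 against 10.66 and 10.25 (-0.30, SE 0.19). H2AZ1 and H2AZ2 differed by -0.07 (SE 0.13) and -0.10 (SE 0.11), and MACROH2A2 by 0.14 (SE 0.11). In the S-phase list MCM6, a subunit of the replicative helicase, read 9.87 and 9.85 against 10.33 and 10.02 (0.31, SE 0.14), MCM2 differed by 0.18 (SE 0.18), TK1 by -0.15 (SE 0.15) and CLSPN by -0.63 (SE 0.59). The difference between the histone genes and these lists was not tested.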

How the data were processed

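The authors deposited 1 log2 intensity per probe set and array, made with GCOS and RMA per the submitters' processing notes. Versions, filters and the annotation's build: not given in the sources used here. The values themselves (2.52 to 14.1, array medians 7.32 to 7.40) show a log2 scale. RMA compresses folds of dim genes. Of 33297 probe sets 19460 had 1 symbol. The brightest probe set stood for a gene, and genes below the 25th percentile of the mean over all arrays were left out.

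The fit was limma 3.58.1 in R 4.3.3 (lmFit, eBayes, group only, two-sided, Benjamini-Hochberg over 13813 genes, threshold 0.05), with 2 residual and 2.60 prior degrees of freedom. Errors are its standard errors and intervals are at 95%. Precision is limited by having 2 arrays a group. Tested on data simulated for this comparison (13813 genes, 20 runs, 200 changed genes), the fit called 30.1% of the 2-fold and 72.3% of the 4-fold changes. The simulated noise was drawn independently for each array, whereas the deviations of same-numbered arrays correlated in the data (0.653). The share of changes recovered under such a correlation was not tested. Every member that passed the filter, the 5 brightest below it and up to 4 genes per list by the smallest p were named. NPAT, CASP8AP2, HINFP, SLBP, LSM10 and LSM11 were added for their roles. The members, lists and tests were chosen with earlier results of these data known. Alternatives were other filters, scalings, priors, probe set summaries, a replicate block and leaving out each array.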

Additional observations from a re-analysis of the deposited data

How the results depend on the processing

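All alternatives were planned. With a replicate block limma called 113 genes (94 lower, 19 higher), of which 1 was a histone gene, H2AC15 (adjusted p 0.0277), and CCAR2 passed as well (0.0232), whereas 0 genes were called under each other alternative, where 200 to 584 genes had an unadjusted p under 0.05. Across genes the deviations of arrays with the same number correlated (0.653), but the labels do not say what a number shares. Under the 50th percentile filter 24 of 24 histone genes were below zero, fewer only because fewer were tested. Under the filters, scalings, priors and probe set summaries the median stayed between -0.34 and -0.21, the latter with no filter, and 0 histone genes turned direction. Without 1 array each, the count below zero ran from 26 to 37, the count with shDBC1 arrays below shNS arrays from 22 to 36, and the median from -0.53 to -0.12. In those fits 13 histone genes turned direction, 11 of them without the second shDBC1 array. Their ranges were -0.12 to 0.050 for H1-3, -0.37 to 0.091 for H2BC13, -0.85 to 0.034 for H2BC14, -0.84 to 0.19 for H2BC3, -0.33 to 0.17 for H2BC8, -0.43 to 0.030 for H2BC9, -0.49 to 0.17 for H3C1, -0.28 to 0.18 for H3C11, -0.97 to 0.030 for H3C12, -0.071 to 0.18 for H3C7, -0.59 to 0.022 for H4C1, -0.12 to 0.064 for H4C6 and -0.76 to 0.075 for H4C8. Adding the probe sets with several histone symbols left the median at -0.34. Differences of the histone genes' size were not simulated, and how far dim probe sets stood above background was not analysed here.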
